A study of Mus musculus with 20 samples.

Results

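TRAJ9 is a joining (J) gene segment of the mouse T cell receptor (TCR) α chain, and its joins were described here in peripheral CD8 T cells of mice that differ in their thymic and hematopoietic proteasomes. A join was an in-frame TCRα clone, without a stop codon, whose first listed J gene was TRAJ9. This gave 7121 of 212832 in-frame clones in 17 mice, which held 2855 distinct CDR3α amino acid sequences and 116007 unique molecules (transcripts told apart by a molecular tag). TRAJ9 was selected on the abundance of 3 CDR3α sequences, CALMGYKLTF, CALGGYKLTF and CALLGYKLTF, which were low in β5t-KO mice against WT and BIT mice. Values of β5t-KO mice for TRAJ9 joins are therefore given as a description, without a test. WT and BIT mice were both high for these sequences by that choice. Tests between them on measures that hold these sequences therefore cannot show that the groups are alike. Tests of β5i-KO mice against either group on such measures are not free of the choice, since it rested on high WT and BIT values.

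The mice were on the C57BL/6 background, male and 9 to 12 weeks old. WT mice carry both specialised β5 subunits, β5i-KO mice lack β5i (encoded by Psmb8, a subunit of immunoproteasomes), and β5t-KO mice lack β5t (encoded by Psmb11, the subunit of thymoproteasomes in cortical thymic epithelial cells). BIT mice are homozygous for an allele in which the coding sequence of β5t stands in place of that of β5i, so they make β5t in cells that otherwise make β5i. TCR libraries do not measure Psmb8, Psmb11 or the defining genes of CD8 T cells, so neither genotype nor cell type could be checked in these data. There were 5 β5i-KO mice and 4 mice of each other genotype, and WT 5, β5t-KO 5 and BIT 3 were left out.

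A TCRα chain is made when a variable (V) segment is joined to a J segment in a developing thymocyte, with bases trimmed from both ends and others added between them. The joint encodes the CDR3α, the loop that lies over the peptide held by an MHC molecule, and the J segment supplies its end. Thymoproteasomes cut peptides on which CD8 T cells are positively selected in the thymus, so the CDR3α sequences of mature CD8 T cells reflect both recombination and selection.

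The germline segments behind the joins that the results turn on are given first, from the genome build GRCm39 with the GENCODE vM39 annotation. Traj9 (ENSMUSG00000076919.2) is a J segment of the TCRα locus at chr14:54446850-54446907 on the plus strand, and the 3′ end of Trav12-1 (ENSMUSG00000096825.4), its most frequent V partner, lies at chr14:53776182-53776195 on the same strand. Capitals mark the methionine codon of Traj9 and the last whole codon of Trav12-1, which encodes serine at CDR3α position 4.
Traj9: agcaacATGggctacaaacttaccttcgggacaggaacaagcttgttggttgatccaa
Trav12-1 3′ end: tgtgctctgAGTga
Up to the phenylalanine that ends the CDR3α, Traj9 encodes SNMGYKLTF. Among all TRAJ9 molecules, 99.5% ended in GYKLTF, 88.0% in MGYKLTF and 50.8% in NMGYKLTF. None of the clones of other J genes ended in GYKLTF (0 of 205711).

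The most frequent nucleotide sequence of each main 10-residue join of the form CALXGYKLTF is printed next, with the codon of X, position 4 of the CDR3α counted from its first cysteine, in capitals. The 12-residue join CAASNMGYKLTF, which ends in all 9 germline residues of TRAJ9, stands beside them because it was found in every mouse.
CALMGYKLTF: tgtgctctgATGggctacaaacttaccttc
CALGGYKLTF: tgtgctctgGGGggctacaaacttaccttc
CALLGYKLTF: tgtgctctgTTGggctacaaacttaccttc
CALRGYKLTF: tgtgctctgAGGggctacaaacttaccttc
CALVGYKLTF: tgtgctctgGTGggctacaaacttaccttc
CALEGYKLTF: tgtgctctgGAGggctacaaacttaccttc
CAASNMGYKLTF: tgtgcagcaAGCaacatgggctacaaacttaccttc
The joins of the form differed in their most frequent sequence only within this codon. In the deposited alignments, the printed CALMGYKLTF sequence lost 4 bases from Trav12-1 and 7 from Traj9 and gained 0. The printed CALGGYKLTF sequence lost 5 and 8 and gained 2, and that of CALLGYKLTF lost 5 and 7 and gained 1. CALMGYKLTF was encoded by 8 nucleotide sequences in all, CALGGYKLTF by 10 and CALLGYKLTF by 11.

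The libraries differed in depth. They held 13519 (β5i-KO 4) to 555786 (WT 4) in-frame molecules, and 18 (β5t-KO 2) to 937 (BIT 1) TRAJ9 clones. The TRAJ9 clones of a group came to 2822 in BIT, 2254 in β5i-KO, 1535 in WT and 510 in β5t-KO mice. The β5t-KO values thus rest on the fewest clones, and fewer cells with a join cannot be told apart from less TCRα RNA per cell. Limits from counts cover counting error only.

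To examine how much of the repertoire used TRAJ9, its share of in-frame molecules was measured in each mouse. TRAJ9 took 4.27%, 3.82%, 3.75% and 4.10% of molecules in the 4 WT mice. It took 4.03%, 3.91%, 4.31% and 3.79% in the 4 BIT mice, and 3.56%, 3.66%, 3.66%, 3.56% and 3.19% in the 5 β5i-KO mice. In the 4 β5t-KO mice it took 2.18%, 1.76%, 2.83% and 2.75%. WT and BIT mice overlapped, all 5 β5i-KO mice lay below both, and all 4 β5t-KO mice lay below all others. The group means in descending order were 4.01% ± 0.220 (SD, n = 4 BIT mice), 3.99% ± 0.243 (SD, n = 4 WT mice), 3.52% ± 0.193 (SD, n = 5 β5i-KO mice) and 2.38% ± 0.506 (SD, n = 4 β5t-KO mice). TRAJ9 ranked 8 of 43 J genes by molecules and 9 by clonotypes.

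Counted once per clonotype (V gene, J gene and CDR3α), the order was less distinct. TRAJ9 made up 3.61% ± 0.318 of clonotypes in WT (SD, n = 4), 3.28% ± 0.144 (SD, n = 5 β5i-KO mice), 3.09% ± 0.390 (SD, n = 4 β5t-KO mice) and 3.38% ± 0.356 (SD, n = 4 BIT mice). β5t-KO 4, at 3.67%, lay within the range of WT mice. In the edgeR fit over 43 J genes, the log2 fold change of TRAJ9 clonotypes was -0.11 ± 0.08 (SE) for β5i-KO minus WT, -0.07 ± 0.08 for BIT minus WT and 0.05 ± 0.07 for BIT minus β5i-KO. The edgeR adjusted p was 0.723, 0.797 and 0.922. By this test 0 of 43 J genes, 0.0%, passed in each of the 3 comparisons, with 1, 3 and 3 at an unadjusted p under 0.05 and 0 by DESeq2. The difference of β5t-KO from WT, given as a description, was -0.23 ± 0.10 (SE) by clonotypes but -0.74 by molecules.

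**Figure D1:**
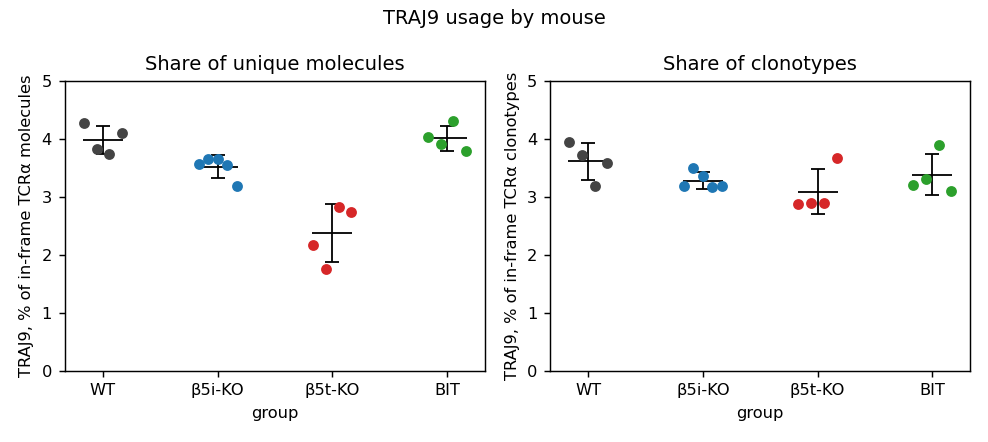
TRAJ9 as a percent of in-frame TCRα molecules (left) and clonotypes (right); each point is a mouse, and the black bars give the mean ± SD of its group. By molecules the 4 β5t-KO mice lay at 1.76% to 2.83%, below all others; by clonotypes β5t-KO 4 lay at 3.67%.

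The J genes whose clonotype share went most like that of TRAJ9 over the 17 mice were TRAJ7 (Pearson r = 0.73), TRAJ4 (r = 0.67) and TRAJ6 (r = 0.62). These are descriptions over mice of 4 genotypes, and shares within a library share its depth and its total.

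Rearrangements that cannot encode a protein are not themselves selected, so out-of-frame TRAJ9 joins were compared as well. They were no members of the selected set, and 498 of 22597 out-of-frame clones used TRAJ9. The share of out-of-frame clonotypes was 0.448%, 0.587%, 2.02% and 1.47% in WT mice, and 1.96%, 0%, 3.22% and 3.4% in β5t-KO mice. The 0% came from 62 out-of-frame clonotypes of β5t-KO 2. It was 2.10% ± 0.429 (SD, n = 5 β5i-KO mice) and 2.44% ± 0.467 (SD, n = 4 BIT mice). The β5t-KO mice spanned the values of all other groups. No difference passed in 5 exact permutation tests (two-sided). For β5t-KO minus WT it was 1.01 percentage points (adjusted p = 0.429, exact permutation test), and for BIT minus WT 1.31 points (adjusted p = 0.143). By molecules the former was -0.185 points.

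Next, the length of the joins was examined. TRAJ9 joins were shorter than joins of other J genes in all 17 mice, by 1.02 ± 0.177 residues (SD of the within-mouse difference). This is given without a test, since the sequences on which TRAJ9 was selected are short. The difference was -0.767 residues in β5t-KO mice, where the short sequences of the selection were at or near 0. Mean length was 12.38 ± 0.0303 residues (SD, n = 4 WT mice), 12.48 ± 0.153 (SD, n = 5 β5i-KO mice), 12.41 ± 0.0802 (SD, n = 4 BIT mice) and 13.04 ± 0.111 (SD, n = 4 β5t-KO mice). Joins of other J genes averaged 13.5 residues in WT, β5i-KO and BIT mice and 13.8 in β5t-KO mice.

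In WT mice and in the means of β5i-KO and BIT mice, TRAJ9 joins were more frequent at 10 than at 11 residues, which joins of other J genes were not. β5i-KO 3 and BIT 4 were exceptions among single mice, and the mean of β5t-KO mice did not show it. Joins of 10 residues made up 23.6%, 15%, 18.7% and 17.4% of TRAJ9 molecules in the WT mice. The share was 12.6%, 17.1%, 9.65%, 11% and 17.1% in the β5i-KO mice and 16.5%, 15.2%, 6.96% and 16.3% in the BIT mice. In the β5t-KO mice it was 0.964%, 0%, 0.183% and 1.75%. Each of the 13 mice of other genotypes lay above each β5t-KO mouse, and BIT 4 lay lowest among the 13. Joins of other J genes were 10 residues long in 2.05% ± 0.129 of molecules in WT (SD, n = 4), 1.99% ± 0.369 (SD, n = 5 β5i-KO mice), 1.94% ± 0.144 (SD, n = 4 BIT mice) and 0.871% ± 0.254 (SD, n = 4 β5t-KO mice).

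The 10-residue share of TRAJ9 joins exceeded that of other J genes in 14 of 17 mice, by 16.6 percentage points on average in WT, 11.5 in β5i-KO and 11.8 in BIT mice. The 3 exceptions were β5t-KO mice. No test is given here either, since the sequences of the selection are TRAV12 joins of 10 residues. TRAJ9 supplied 27.4% ± 5.68 of all 10-residue molecules in WT (SD, n = 4), 19.8% ± 2.53 (SD, n = 5 β5i-KO mice), 22.2% ± 4.71 (SD, n = 4 BIT mice) and 2.16% ± 2.86 (SD, n = 4 β5t-KO mice). Among the 3 genotypes tested, the 10-residue share of TRAJ9 joins differed by -5.18 points for β5i-KO minus WT and by -4.95 points for BIT minus WT. Neither passed the exact permutation test (adjusted p = 0.343 and 0.490 over 24 comparisons). Before adjustment this test can give no p below 0.00794 and 0.0286 with these numbers of mice. Not passing thus does not show that the groups are alike.

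**Figure D2:**
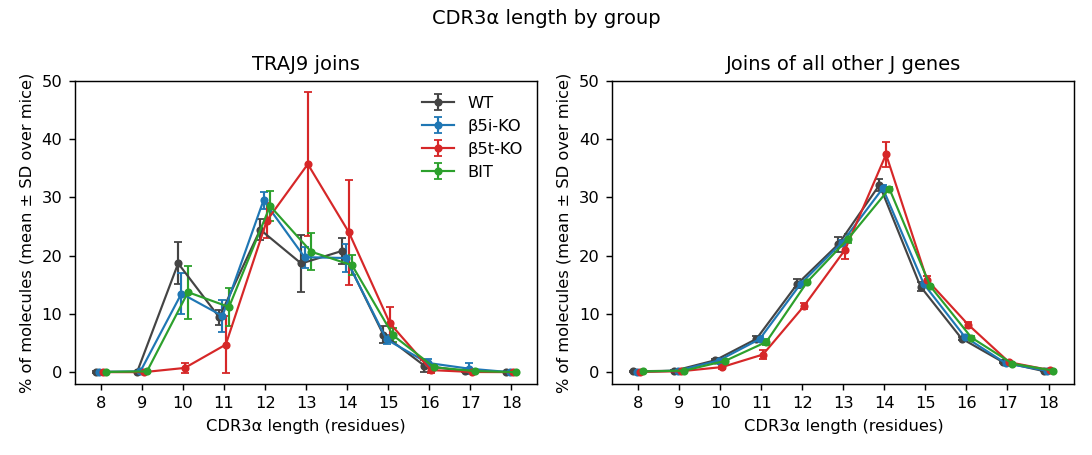
Percent of molecules by CDR3α length for TRAJ9 joins (left) and joins of all other J genes (right); points are group means and bars the SD over mice. At 10 residues TRAJ9 joins made up 18.7% in WT and 0.724% in β5t-KO mice, and in β5t-KO mice they were most frequent at 13 residues (35.7%).

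In β5t-KO mice the 10-residue molecules came from 4 clones in 3 mice. β5t-KO 1 held 34 molecules of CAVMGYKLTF with TRAV7-3, and β5t-KO 4 held 75 molecules of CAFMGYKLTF with TRAV12-2. β5t-KO 3 held 4 molecules of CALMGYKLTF and 2 of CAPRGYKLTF, both with TRAV12-1. The same nucleotide sequence of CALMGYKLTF was found in all 13 mice of other genotypes. By clones, 10-residue joins were 128 of 1535 in WT (8.34%), 116 of 2254 in β5i-KO (5.15%), 167 of 2822 in BIT (5.92%) and 4 of 510 in β5t-KO mice (0.784%). The difference of β5t-KO from WT in the 10-residue share was -17.96 percentage points by molecules and -7.04 points with each clonotype counted once.

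The length of the joins went with their V partner. The 5 V subgroups with the highest mean share of TRAJ9 molecules were TRAV12 (32.8%), TRAV7 (18.5%), TRAV14 (10.8%), TRAV3 (8.96%) and TRAV6 (6.36%). V genes were grouped by subgroup because 44.6% of the clones, and 71.1% of those with TRAV12, listed more than 1 V gene, as near-identical copies of V genes do. Of the 10-residue joins, TRAV12 supplied 98.5% ± 2.69 of molecules in WT (SD, n = 4), 93.2% ± 5.61 (SD, n = 5 β5i-KO mice) and 96.5% ± 2.52 (SD, n = 4 BIT mice).

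Among joins of TRAV12 with TRAJ9, 46.4%, 38.7%, 42.7% and 44.6% of molecules were 10 residues long in the WT mice. In the β5i-KO mice the share was 43.9%, 49.4%, 32.8%, 35.7% and 45.5%, and in the BIT mice 47.5%, 49.2%, 24.6% and 48.4%. In the β5t-KO mice it was 0%, 0%, 0.631% and 4.86%, of 626, 409, 951 and 1543 molecules. The groups other than β5t-KO overlapped throughout, and BIT 4 stood apart from the other BIT mice. Joins of TRAJ9 with other V subgroups were 10 residues long in at most 2.57% of molecules in any mouse. TRAV12 joined to other J genes reached 10 residues in 4.47% ± 0.301 of molecules in WT (SD, n = 4), 4.70% ± 0.811 (SD, n = 5 β5i-KO mice), 4.57% ± 0.681 (SD, n = 4 BIT mice) and 0.757% ± 0.175 (SD, n = 4 β5t-KO mice).

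TRAV12 with TRAJ9 was not lost as a pair in β5t-KO mice, but its joins were longer on average. They averaged 13.36 ± 0.207 residues (SD, n = 4 β5t-KO mice) against 11.85 ± 0.178 (SD, n = 4 WT mice), 11.85 ± 0.295 (SD, n = 5 β5i-KO mice) and 11.77 ± 0.348 (SD, n = 4 BIT mice). The sequences of the selection are short joins of this pair, so the longer mean is in part given by that choice. Whether the remaining joins of the pair differed in length was not tested. Joins of TRAJ9 with other V subgroups averaged 12.9 ± 0.159 residues (SD, n = 4 β5t-KO mice) and 12.8 ± 0.0806 (SD, n = 4 WT mice). The pair was seen in 464 clones of WT, 489 of β5i-KO, 658 of BIT and 114 of β5t-KO mice.

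**Figure D3:**
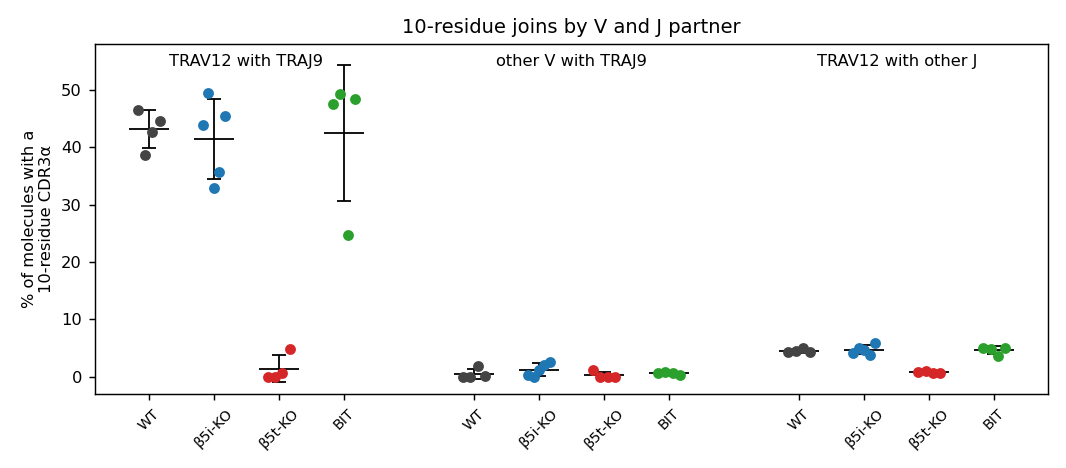
Percent of molecules with a 10-residue CDR3α among TRAV12 joined to TRAJ9, other V subgroups joined to TRAJ9, and TRAV12 joined to other J genes; each point is a mouse and the black bars give mean ± SD. The 13 mice of other genotypes lay at 24.6% to 49.4% for TRAV12 with TRAJ9, and the 4 β5t-KO mice at 0% to 4.86%. The sequences on which TRAJ9 was selected are among these 10-residue joins.

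The share of TRAV12 among TRAJ9 molecules was 50.9%, 38.8%, 41.4% and 38.8% in the WT mice. It was 28.2%, 34.6%, 26.7%, 26.8% and 33.9% in the β5i-KO mice and 33.9%, 29.7%, 26.3% and 33.2% in the BIT mice. All 4 WT mice lay above all β5i-KO and BIT mice. The exact permutation test gave p = 0.00794 for β5i-KO minus WT (-12.4 points) and p = 0.0286 for BIT minus WT (-11.7 points), the smallest it can give with these numbers of mice. The adjusted p of 0.190 and 0.343 over 24 comparisons did not pass. The sequences of the selection are TRAV12 joins, chosen as high in WT and BIT mice. The WT share may thus be raised by that choice, and the p-values are not free of it. Among molecules of other J genes the TRAV12 share was 32.2% ± 1.90 (SD, n = 4 WT mice), 28.3% ± 2.53 (SD, n = 5 β5i-KO mice), 26.3% ± 1.27 (SD, n = 4 BIT mice) and 30.8% ± 1.76 (SD, n = 4 β5t-KO mice). TRAV12 was higher among TRAJ9 joins than among those of other J genes by a mean of 3.46 points, in 14 of 17 mice, but by 0.345 points when each clonotype was counted once. This too is given without a test.

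In β5t-KO mice TRAV12 made up 28.5% ± 7.73 of TRAJ9 molecules (SD, n = 4), with 17.7% in β5t-KO 1 and 36.0% in β5t-KO 4. TRAV6, at 11.5%, 16%, 7.95% and 7.72% of TRAJ9 molecules in the β5t-KO mice, averaged 3.89% ± 1.67 (SD, n = 4 WT mice). β5i-KO mice averaged 5.49% ± 3.17 (SD, n = 5) and BIT mice 5.50% ± 2.67 (SD, n = 4). The highest single values there, 10.4% in β5i-KO 4 and 9.48% in BIT 2, lay within the β5t-KO range.

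Over joins of any length, the residue at CDR3α position 4 was most often serine, which many V segments and Traj9 itself encode. Serine took 45.9% ± 0.974 (SD, n = 4 WT mice), 47.5% ± 4.20 (SD, n = 5 β5i-KO mice), 46.3% ± 2.83 (SD, n = 4 BIT mice) and 53.1% ± 8.98 (SD, n = 4 β5t-KO mice). Arginine took 10.1% to 11.9% and glycine 7.85% to 9.65% of molecules in the group means. Aspartate took 2.97% to 6.65%, lowest in β5t-KO mice. No difference in serine, glycine or leucine among the other genotypes passed the exact permutation tests (adjusted p = 0.677 to 0.976).

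Methionine at position 4, a residue that Traj9 encodes, was rare in β5t-KO mice. It made up 14%, 10.1%, 11.3% and 10.9% of TRAJ9 molecules in the WT mice. It made up 7.65%, 8.60%, 5.73%, 6.65% and 11.9% in the β5i-KO mice and 10.6%, 6.49%, 4.59% and 9.84% in the BIT mice. The β5t-KO mice held 1.5%, 0%, 0.518% and 1.75%. All β5t-KO mice lay below all others, in part by the choice of TRAJ9, since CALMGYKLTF of the selection is among these joins. The difference of β5i-KO from WT was -3.50 points (exact permutation p = 0.0476, adjusted p = 0.343) and that of BIT from WT -3.72 points (p = 0.0571, adjusted p = 0.343).

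Within 10-residue joins, methionine at position 4 took 59.4% to 67.5% of molecules in WT, 47.3% to 69.3% in β5i-KO and 42.8% to 61.6% in BIT mice. Glycine took 10.2% ± 5.26 (SD, n = 4 WT mice), 10.8% ± 6.13 (SD, n = 5 β5i-KO mice) and 16% ± 10.4 (SD, n = 4 BIT mice), where BIT 2 held 31.4%. Leucine took 8.41% ± 2.56, 13.8% ± 9.28 and 9.12% ± 1.26 in the same order, with 0% in β5i-KO 5. Arginine and valine took 2.05% to 6.96% in these group means, the order of the residues after methionine differing between groups. The 10-residue molecules of β5t-KO mice all carried methionine, apart from 2 molecules with arginine.

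The codon at position 4 differed in its source. In the 10-residue joins with methionine, which 72 nucleotide sequences encoded, it held no added base in 100% of 9729 molecules. With glycine (1892 molecules, 30 nucleotide sequences), leucine (1526 molecules) and valine (661 molecules) the share without an added base was 0%. With arginine it was 71.2% of 749 molecules. Whether a base was added or kept from an end can be ambiguous where both give the same letter.

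**Figure D4:**
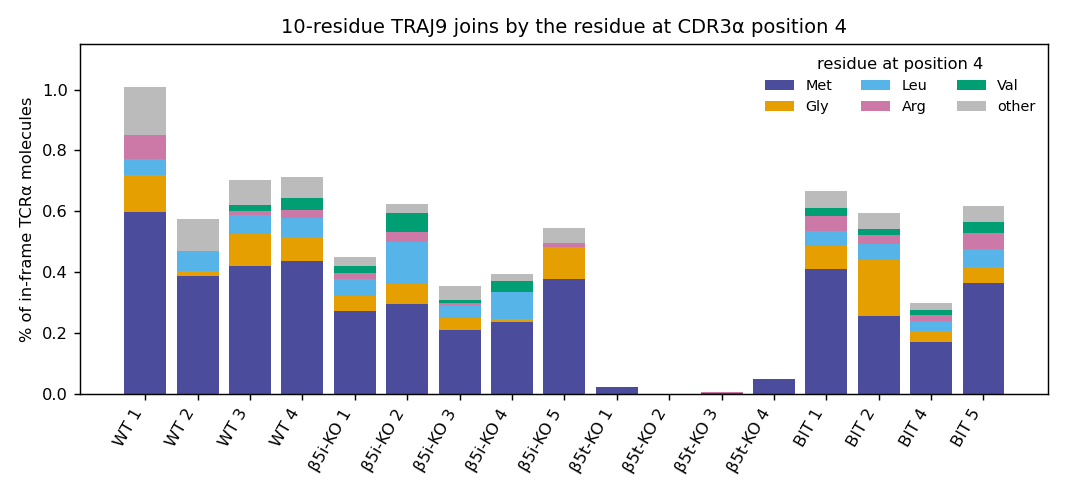
10-residue TRAJ9 joins of each mouse as a percent of in-frame TCRα molecules, split by the residue at CDR3α position 4. Methionine is the largest part in each of the 13 mice of other genotypes (0.169% to 0.598%), and the bars of the β5t-KO mice are at or near 0.

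The joins of the form CALXGYKLTF, with any residue at X, made up 0.664%, 0.387%, 0.521% and 0.544% of in-frame molecules in the WT mice. They made up 0.341%, 0.477%, 0.274%, 0.325% and 0.407% in the β5i-KO mice, and 0.523%, 0.494%, 0.223% and 0.487% in the BIT mice. In β5t-KO mice the form was seen as 4 molecules of 1 clone in β5t-KO 3 (0.00345% of its molecules), among 508369 in-frame molecules of the group. Over pooled molecules this is 661-fold, 449-fold and 577-fold less than in WT, β5i-KO and BIT mice. These folds rest on the 4 molecules of 1 clone, and the difference was smaller by clones. The form then made up 71 of 1535 TRAJ9 clones in WT (4.63%) and 69 of 2254 in β5i-KO mice (3.06%). It made up 89 of 2822 in BIT (3.15%) and 1 of 510 in β5t-KO mice (0.196%). As a share of TRAJ9 molecules the form took 13.2% ± 2.28 (SD, n = 4 WT mice), 10.4% ± 2.41 (SD, n = 5 β5i-KO mice) and 10.9% ± 3.81 (SD, n = 4 BIT mice). No difference among these passed the exact permutation test (adjusted p = 0.490, 0.823 and 0.976). The form holds the sequences of the selection, so these tests cannot show that the groups are alike. Between 5 and 11 different residues stood at X in each WT, β5i-KO and BIT mouse, and TRAV12 encoded at least 96.7% of the molecules of the form in each.

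By reads per 1000000 in-frame TCRα reads (CPM), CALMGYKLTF was the most abundant of these joins. It reached 2504, 1908, 2209 and 2303 CPM in the WT mice, and 1398, 1896, 1148, 1323 and 1923 CPM in the β5i-KO mice. The BIT mice held 2362, 1791, 934 and 1919 CPM, and the β5t-KO mice 0, 0, 86.6 and 0 CPM. WT mice lay mostly above β5i-KO mice, and BIT mice overlapped both.

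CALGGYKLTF was measured at 409, 98.4, 745 and 490 CPM in the WT mice, 136 to 931 CPM in the β5i-KO mice and 199 to 965 CPM in the BIT mice. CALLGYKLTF was measured at 314, 570, 544 and 447 CPM in the WT mice and 201 to 563 CPM in the BIT mice, while the β5i-KO mice held 0 (β5i-KO 5) to 859 CPM. Neither was detected in any β5t-KO mouse. With a floor of 3 molecules over the β5t-KO group, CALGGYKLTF was 104-fold, 78.0-fold and 99.9-fold higher by molecules in WT, β5i-KO and BIT mice. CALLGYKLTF was 96.7-fold, 94.4-fold and 82.1-fold higher in the same order. Molecules come in clones, and the β5t-KO group held 510 TRAJ9 clones in all. These folds are thus no lower limits for the difference by clones.

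The rarer members of the form were not found in every mouse. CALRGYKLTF was measured at 752, 0, 151 and 190 CPM in the WT mice, at 0 to 246 CPM in the β5i-KO mice and at 165 to 323 CPM in the BIT mice. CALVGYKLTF was measured at 0, 0, 31.3 and 347 CPM in the WT mice, at 0 to 490 CPM in the β5i-KO mice and at 121 to 243 CPM in the BIT mice. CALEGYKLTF was measured at 0, 450, 159 and 117 CPM in the WT mice, at 89.5 to 137 CPM in the β5i-KO mice and at 77.5 to 163 CPM in the BIT mice. All 3 were at 0 in the β5t-KO mice. The other 9 residues seen at X (threonine, lysine, isoleucine, serine, alanine, tyrosine, glutamine, aspartate and tryptophan) averaged 0.0406 to 51.3 CPM over the 17 mice, in 1 to 9 of them.

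A pair of other TRAV12 joins among the 10 most abundant TRAJ9 sequences was also at 0 in all β5t-KO mice. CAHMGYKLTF, of 10 residues, was measured at 537, 642, 576 and 519 CPM in the WT mice, above all β5i-KO mice (131 to 414 CPM) and all BIT mice (175 to 319 CPM). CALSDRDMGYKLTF, of 14 residues and thus not short, was measured at 147 to 749 CPM in WT, 0 to 381 CPM in β5i-KO and 138 to 647 CPM in BIT mice. By molecules over the floor of the β5t-KO group, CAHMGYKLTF was 118-fold higher in WT and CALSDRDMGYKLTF 139-fold higher. These folds too are no lower limits for the difference by clones.

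Longer TRAJ9 joins that match more of the germline segment were present in β5t-KO mice. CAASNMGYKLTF, the most abundant TRAJ9 sequence on average, reached 401, 3685, 1502 and 794 CPM in the β5t-KO mice. It reached 1361 ± 187 CPM (SD, n = 4 WT mice), 1768 ± 396 (SD, n = 5 β5i-KO mice) and 1532 ± 289 (SD, n = 4 BIT mice), all within the β5t-KO range. The upper end of that range came from β5t-KO 2, which had 18 TRAJ9 clones. The other β5t-KO mice reached at most 1502 CPM, above the WT mean but below the β5i-KO and BIT means. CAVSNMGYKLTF was found in every mouse too, at 212, 1984, 599 and 239 CPM in the β5t-KO mice and 858 to 1944 CPM in the WT mice. The high value was again that of β5t-KO 2. The other β5t-KO mice lay below every WT mouse and every BIT mouse (947 to 1286 CPM), so this sequence was present but mostly lower there. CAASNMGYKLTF and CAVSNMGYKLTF were both joined mostly to TRAV7 (60.2% and 63.5% of their molecules). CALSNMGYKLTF, a TRAV12 join that keeps the whole SNMGYKLTF end, was measured at 131, 0, 635 and 589 CPM in the β5t-KO mice and 0 to 560 CPM in the WT mice.

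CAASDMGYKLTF and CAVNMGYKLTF, the remaining sequences among the 10 most abundant, were each found in 2 of 4 β5t-KO mice. They averaged 58.6 ± 67.7 and 107 ± 155 CPM there (SD, n = 4), against 292 ± 265 and 453 ± 334 CPM (SD, n = 4 WT mice).

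Abundance was tested in the table of all CDR3α sequences for the 3 comparisons without β5t-KO mice. Of 2855 TRAJ9 sequences, 653 passed the filter at a mean of 10 CPM, 30 of them with 10 residues. By edgeR 0 of 653 passed in each comparison, as did 0 of the 13 sequences named above, each with an adjusted p of 1.0. Over all 19302 sequences 1 passed in each comparison, 0.00518%. The SE of the log2 fold changes of the 13 named sequences ran from 1.08 to 3.10, so large differences could go uncalled. That 0 passed thus does not show that the groups are alike. At an unadjusted edgeR p under 0.05 there were 139, 65 and 70 TRAJ9 sequences for β5i-KO minus WT, BIT minus WT and BIT minus β5i-KO. These were 21.3%, 9.95% and 10.7% of the TRAJ9 sequences tested, against 22.4%, 9.11% and 9.82% of all sequences. DESeq2 called 113, 99 and 68 TRAJ9 sequences (17.3%, 15.2% and 10.4%) and 18.6%, 16.3% and 11.2% of all sequences, so the TRAJ9 shares were near the background. None of the 13 named sequences was among the DESeq2 calls.

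The match to the germline segment was measured by the residues at the end of the CDR3α, whether the V or the J segment supplied their bases. Joins that ended in the whole SNMGYKLTF made up 21.9% ± 1.89 of TRAJ9 molecules in WT (SD, n = 4) and 27.3% ± 4.03 (SD, n = 4 β5t-KO mice). The share was 24.6% ± 3.38 (SD, n = 5 β5i-KO mice) and 21.5% ± 2.28 (SD, n = 4 BIT mice). β5t-KO 2, at 22.7%, lay within the range of WT mice. Such shares of TRAJ9 molecules are also higher where the sequences of the selection are missing. Joins that ended in GYKLTF without the methionine made up 13.3% ± 0.899 (SD, n = 4 WT mice), 11% ± 1.63 (SD, n = 5 β5i-KO mice) and 12.5% ± 2.58 (SD, n = 4 BIT mice). The β5t-KO mice held 3.18%, 0.0764%, 5.03% and 6.44%, all below every other mouse. This class holds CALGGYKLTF and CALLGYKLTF, on which TRAJ9 was selected, so the low β5t-KO values are in part given by that choice. Of the classes compared, joins without the methionine match the fewest J residues.

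**Figure D5:**
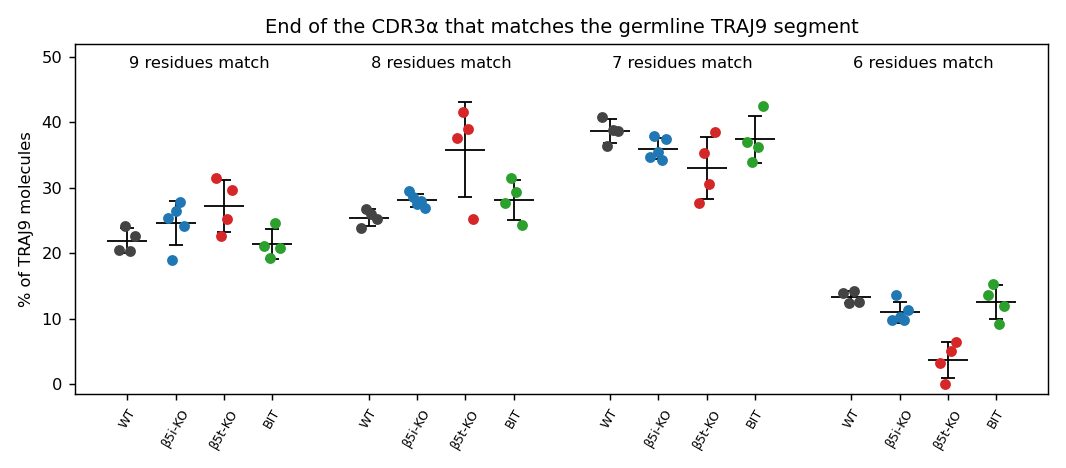
Percent of TRAJ9 molecules whose CDR3α ends in all 9 germline residues of TRAJ9 or in the last 8, 7 or 6 of them; each point is a mouse and the black bars give mean ± SD. For the last 6, the β5t-KO mice lay at 0.0764% to 6.44% and the other mice at 9.25% to 15.3%.

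Joins without any added base, as the alignments assign them, made up 31.9% ± 2.15 of TRAJ9 molecules in WT (SD, n = 4), 33.8% ± 2.66 (SD, n = 5 β5i-KO mice), 32.4% ± 4.08 (SD, n = 4 BIT mice) and 25.5% ± 1.90 (SD, n = 4 β5t-KO mice). For other J genes the means were 31.4%, 31.1%, 31.2% and 30.9% in the same order. In β5t-KO mice the TRAJ9 share lay below that of other J genes. The most frequent sequence of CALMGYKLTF, on which TRAJ9 was selected, has no added base, so this is in part given by that choice. Of the 2855 TRAJ9 sequences, 1943 were found in a single mouse and 56 in 10 or more mice.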

How the data were processed

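Lymphocytes of lymph nodes, and per the labels' protocol also of spleens, were sorted as TCRβ-high CD4-CD8+ cells, and TCRα and TCRβ transcripts were amplified with a SMARTer profiling kit for mouse TCRs (Takara). The authors listed clones with MiXCR (version and settings not given in the sources used here; the submitters' processing notes name mm10), and the deposited tables give per clone a read count, a unique molecule count, V and J genes and CDR3 sequences. No coordinates are in the tables. Germline segments were read from GRCm39 with GENCODE vM39.

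The first listed V and J gene of each clone were used. Deposited clone fractions and TCRβ tables were not used. WT 5 has only a TCRβ table, β5t-KO 5 few clones, and BIT 3 the fewest sequences of the BIT mice. The study compared 4 BIT mice, which the labels do not name. None of 28 pairs of libraries within groups was identical. Each library is a separate mouse, so errors are between mice.

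Shares are of unique molecules unless said otherwise. J gene usage was tested on clonotype counts (at least 5 in at least 4 libraries) and sequences on read counts (mean of 10 CPM or more over the 17 libraries) with the quasi-likelihood test of edgeR 4.0.16 in R 4.3.3, with all 17 mice in the fit and library totals as size. Other measures were tested with exact two-sided permutation tests in Python 3.11.15 with SciPy 1.17.1, NumPy 2.4.6 and pandas 2.3.3. The smallest unadjusted p of these permutation tests is 0.00794 for 5 against 4 mice and 0.0286 for 4 against 4, so they have little power after adjustment. Figures were drawn with Matplotlib 3.10.9. P-values were adjusted by Benjamini-Hochberg at 0.05. The edgeR fit was also run on simulated data with known changes. The spread there was set in advance and not taken from these data, so it gives no measure of power here. Alternatives were DESeq2 1.42.0, TMM, other filters, other units (clonotypes, molecules, reads), single V genes, thinning to 13519 molecules, BIT 3 included, each mouse left out, and replicate number as a block.

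The members and lists were chosen with earlier results of these data known. Named were all sequences CALXGYKLTF (by mouse where the mean reached 100 CPM), the 10 TRAJ9 sequences, 5 V subgroups and 5 residues at position 4 with the highest means, and the 3 J genes correlated most with TRAJ9. A count of 0 over a group was replaced by 3 molecules for folds, which takes molecules as independent although they come in clones. Molecule totals of 13519 to 555786 per library limit the precision, and β5t-KO 2 had 18 TRAJ9 clones.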

Additional observations from a re-analysis of the deposited data

Results flagged for a closer look

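Values that stood apart from the rest of their group by Dixon's criterion were the following. Chance marks about 1 in 20 groups. BIT 4 held 6.96% of TRAJ9 molecules as 10-residue joins (other BIT mice 15.2% to 16.5%) and 5.19% as the form CALXGYKLTF (12.6% to 13%). Its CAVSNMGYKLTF, of 12 residues, reached 1286 CPM (947 to 983 CPM). BIT 2 held glycine at position 4 in 13.1% of TRAJ9 molecules (6.63% to 7.19% in the other BIT mice).

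TRAJ9 took 3.19% of in-frame molecules in β5i-KO 5 (3.56% to 3.66% in the other β5i-KO mice). WT 2 had a mean TRAJ9 length of 12.42 residues, against 12.36 in each other WT mouse. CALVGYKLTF reached 347 CPM in WT 4 and 0 to 31.3 CPM in the other WT mice. β5t-KO 3 was the only β5t-KO mouse with the form CALXGYKLTF (0.122% of TRAJ9 molecules), all of it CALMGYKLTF at 86.6 CPM.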

How the results depend on the processing

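Of the differences and counts recomputed under the alternatives, 608 values kept their direction and their side of the threshold, or stayed within the spread between mice, while 51 changed sign, 14 moved further and 11 fell below the threshold. This tally includes the comparisons of TRAJ9 with other J genes, for which no test is given. The 11 all came from the TRAV12 excess there, where 9 of 20 alternatives stayed the same. Counts of all sequences called are left out of the tally, and of these 28 moved and 18 stayed the same. The cause of the changes was not tested.

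Counting clonotypes instead of molecules gave, for BIT minus β5i-KO, -0.399 points for 10-residue joins, -1.76 for TRAV12, -0.816 for the form CALXGYKLTF and 0.0413 for methionine at position 4. It gave -0.171 points for leucine and -0.0607 for serine in β5i-KO minus WT, and -0.904 for serine in BIT minus WT. The described differences moved as well. The TRAJ9 share of in-frame joins was then -0.526 points for β5t-KO minus WT and 0.295 for BIT minus β5t-KO, and 10-residue joins differed by -7.04 and 3.75 points. By reads, the 10-residue difference of β5t-KO from WT was -14.2 points, and methionine in BIT minus β5i-KO was 0.376. The excess of TRAV12 among TRAJ9 joins over other J genes was 0.345 points by clonotypes, 1.57 by reads and 2.48 with BIT 3, and 2.63 to 4.54 with single mice left out.

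With single V genes only, BIT minus WT was -0.0497 residues in mean length, 0.325 points for leucine and -0.269 for serine, glycine in β5i-KO minus WT was -0.0320 points, and methionine in BIT minus β5i-KO 0.443. With BIT 3 included, BIT minus β5i-KO was 0.0851 residues in length, -2.51 points for 10-residue joins, -2.28 for TRAV12, -1.69 for the form, -1.07 for glycine and 8.55 for serine, and glycine in BIT minus WT was -1.04.

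With each mouse left out in turn, BIT minus β5i-KO ranged from -0.729 to 2.49 points for 10-residue joins, -0.279 to 2.26 for TRAV12, -0.233 to 2.40 for the form, -1.12 to 0.884 for methionine, -0.915 to 1.25 for glycine and -2.57 to 0.226 for serine. Glycine ranged from -0.545 to 0.466 in β5i-KO minus WT and -0.888 to 1.28 in BIT minus WT (lowest without BIT 2), and serine in BIT minus WT from -0.594 to 1.66. Out-of-frame TRAJ9 in BIT minus β5t-KO ranged from -0.418 (without β5t-KO 2) to 0.715 points, and the log2 usage of TRAJ9 in BIT minus β5i-KO from -0.0359 (without BIT 4) to 0.0862.

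By molecules, out-of-frame TRAJ9 was -0.00853 points for β5i-KO minus WT and -0.185 for β5t-KO minus WT. The log2 usage of TRAJ9 was 0.00903 for BIT minus WT by molecules. It was -0.74 by molecules and -0.55 by reads for β5t-KO minus WT, and 0.75 by molecules, 0.55 by reads and 0.27 after thinning for BIT minus β5t-KO. After thinning 1 J gene, not TRAJ9, passed in BIT minus WT. DESeq2 called 113, 99 and 68 TRAJ9 sequences where edgeR called 0.

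Whether replicate numbers pair the mice was not tested. The mean r of the deviations was 0.0854 for same-numbered mice (-0.166 to 0.650) and -0.0256 for different numbers (-0.598 to 0.593). Of 17 mice, 7 were closest to a mouse of their own number. With the replicate number as a block the log2 usage of TRAJ9 was -0.06, -0.03 and 0.03 for β5i-KO minus WT, BIT minus WT and BIT minus β5i-KO, and 0 J genes and 0 TRAJ9 sequences passed. The 18 TRAJ9 clones of β5t-KO 2 limit what its shares can show.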

Other observations

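In the mice left out, BIT 3 held 12 TRAJ9 clones among 475 in-frame clones (950 molecules, 2.18% of its in-frame molecules), with 0 of 10 residues. β5t-KO 5 held 1 TRAJ9 clone among 24 in-frame clones, with 176 molecules (15.8%).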
